A study of Danio rerio with 3 samples.

Results

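The c1q-positive cells were 456 of 6055 liver cells from 3 adult male zebrafish, each at 6 months post fertilization and each giving 1 single-cell RNA sequencing library. A cell was called c1q-positive if it held fewer than 10000 UMIs (unique molecular identifiers, 1 for each captured transcript) and if c1qa, c1qb and c1qc together had at least 3 UMIs and at least 0.2% of all UMIs of that cell. The HepABC HCC liver held 202 of them among 2866 cells, the CreLox HCC liver 141 among 2112 and the no HCC liver 113 among 1077. They were set against the 3262 other cells under 10000 UMIs of the same livers, which numbered 726, 1785 and 751. The HepABC HCC liver was from a Tg(fabp10a-pt-β-catenin) fish, in which the hepatocyte promoter of fabp10a drives activated β-catenin in hepatocytes. Per the study's methods this fish also carried a Wnt reporter, Tg(7xTCF-Xla.Siam:mCherry), and it had no tamoxifen. The CreLox HCC liver was from a Tg(fabp10a-CreERT2;fabp10a-flox-β-catenin) fish treated with 10 µM 4-hydroxytamoxifen between days 3 and 6 after fertilization. Per the study, most larval hepatocytes then switch from a blue fluorescent protein to activated β-catenin. The study estimated that switching in a separate reporter line. The no HCC liver was from a Tg(fabp10a-flox-β-catenin) fish with the same tamoxifen treatment and no Cre recombinase. All 3 fish carried a fabp10a-driven transgene, so there was no wild-type liver. With 1 liver in each group, the group, the fish and the library cannot be told apart, and values are compared between libraries with counting intervals and with no test.

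C1q is the recognition molecule of the classical complement pathway. It binds antibody complexes, dying cells and debris, and in mammals it is made mostly by tissue macrophages and dendritic cells rather than by hepatocytes, which make most other complement proteins. Resident macrophages of the liver, called Kupffer cells in mammals, take up particles from portal blood, break them down in lysosomes with cathepsins and other acid hydrolases, recycle iron from spent red cells and show peptides on MHC class II, whose assembly needs the invariant chain CD74. Whether a cell is resident or newly recruited is not a measured quantity here, and the cells are called c1q-positive throughout.

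The 456 cells were shallow. Their median depth was 2218 UMIs per cell for HepABC HCC, 1618 for CreLox HCC and 1770 for no HCC, with a median of 772.5, 600 and 570 genes detected, and their summed UMIs were 517768, 322476 and 248321. The other cells under 10000 UMIs had a median of 5269, 1587 and 1397 UMIs. Between the libraries 11 cell barcodes were shared, none of them in a c1q-positive cell. Doublets were not removed, and 2, 3 and 2 of the c1q-positive cells were among those with the highest doublet scores. Hepatocyte transcripts were found in all cell populations of every library, as free RNA gives them in droplet data. The gene for the liver fatty acid binding protein, fabp10a, had 8678, 10875 and 13269 CPM (UMI counts scaled to the same total of UMIs in each sum of cells) in c1q-positive cells of HepABC HCC, CreLox HCC and no HCC, against 17049, 12831 and 17644 CPM in lymphoid cells (chosen by a marker panel, below) and 39265, 48829.9 and 32802 CPM in all other cells. A list of 21 hepatocyte genes took 3.37%, 3.28% and 6.34% of the UMIs of c1q-positive cells, against 17.9%, 15.4% and 15.9% in other cells. Mitochondrial transcripts took 5.21%, 4.10% and 6.66% of their UMIs, against 11.9%, 2.43% and 6.41%. The β-catenin transgene, under the hepatocyte promoter, had 0, 24 and 9 UMIs in c1q-positive cells, that is 0, 74.4 and 36.2 CPM, against 20.4, 278 and 183 CPM in other cells. In the no HCC fish, which had no Cre recombinase, this sequence lay behind a blue fluorescent protein cassette. Its UMIs there are thus not taken as a measure of activated β-catenin. The blue fluorescent protein gene had 339 UMIs in c1q-positive cells of CreLox HCC and 679 in those of no HCC. All intervals below are 95% intervals that cover counting error only.

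The 3 c1q genes chose the cells, and their values are a description. Per cell the sum of c1q UMIs ran from 3 to 82 with a median of 26 for HepABC HCC, from 3 to 98 with a median of 10 for CreLox HCC, and from 3 to 76 with a median of 16 for no HCC. Their share of the cell's UMIs had a median of 1.11%, 0.604% and 0.712%, and the lowest shares inside the limit were 0.201%, 0.219% and 0.207%. Exactly 3 UMIs were found in 4, 13 and 13 c1q-positive cells, and just outside the limit 11, 18 and 22 other cells had 2 UMIs. A further 4, 7 and 5 cells had at least 3 c1q UMIs but too low a share. The great majority of other cells, 666, 1698 and 689, had none. All 3 genes were detected in 184, 104 and 79 of the c1q-positive cells, and 1 gene alone in 0, 4 and 3. Summed over the cells, c1qa had 2184 CPM for HepABC HCC, 1637 for CreLox HCC and 1510.1 for no HCC, c1qb had 4821 CPM for HepABC HCC, 4044 for CreLox HCC and 3057 for no HCC, and c1qc had 4062 CPM for HepABC HCC, 3371 for CreLox HCC and 3669 for no HCC. In the GRCz12tu assembly of RefSeq these genes lie on chromosome 21, and c1qb or c1qc was the most abundant of them in each library. The c1q-positive cells held 98.5%, 96.0% and 95.4% of all c1q UMIs found under 10000 UMIs. From 3 to 5 c1q UMIs were found in 16 of 202, 38 of 141 and 34 of 113 c1q-positive cells. A larger part of the c1q-positive cells thus lay near the limit in CreLox HCC and no HCC than in HepABC HCC. The plot of c1q UMIs against depth shows the cells on both sides of the limit.

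**Figure D1:**
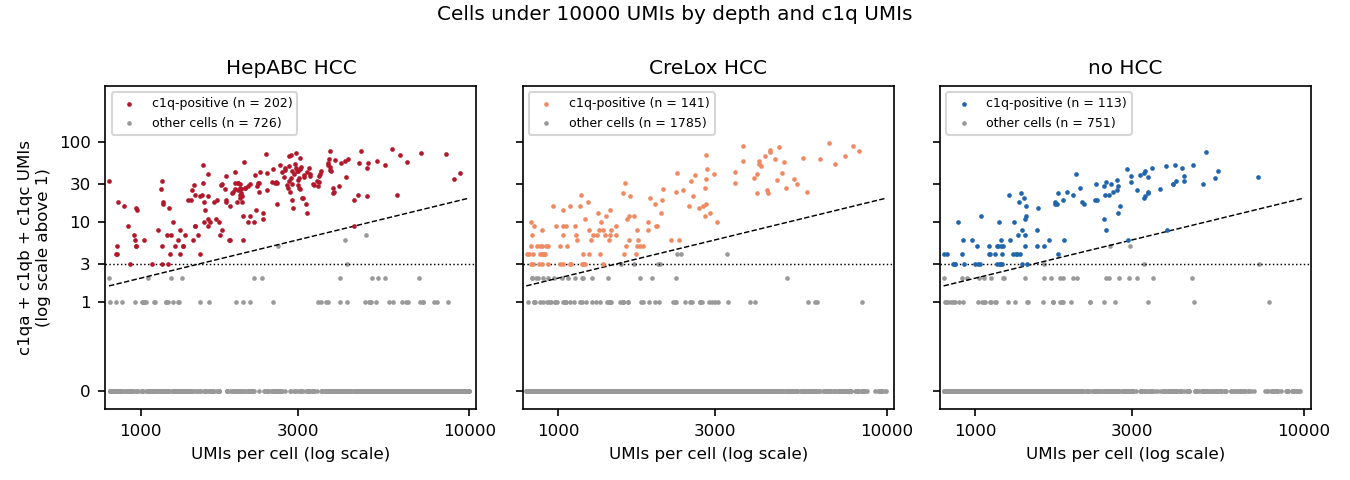
Each point is a cell under 10000 UMIs, by its UMIs (x axis, log scale) and its summed c1qa, c1qb and c1qc UMIs (y axis, log scale above 1), coloured where c1q-positive and grey otherwise. The dotted line is 3 UMIs and the dashed line 0.2% of UMIs, and c1q-positive cells reach 82 UMIs for HepABC HCC, 98 for CreLox HCC and 76 for no HCC.

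As a share of cells under 10000 UMIs, c1q-positive cells made up 21.8% (Clopper-Pearson interval 19.2 to 24.6) for HepABC HCC, 7.32% (6.20 to 8.58) for CreLox HCC and 13.1% (10.9 to 15.5) for no HCC. As a share of all cells they were 7.05% (6.14 to 8.05), 6.68% (5.65 to 7.83) and 10.5% (8.73 to 12.5). The order of the livers thus depended on the denominator. HepABC HCC was highest under the limit of 10000 UMIs, where only 928 of its 2866 cells lay, and no HCC was highest among all cells. The shares count droplets that passed the study's cell calling and say nothing on cell numbers in the intact liver.

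The other 3 marker genes given for these cells differed in how evenly they marked the libraries. The invariant chain gene cd74a had 26720.5 (26277 to 27169.5) CPM for HepABC HCC, 27881 (27308 to 28464) for CreLox HCC and 48127 (47268 to 48998) for no HCC in c1q-positive cells, against 188, 509.7 and 2260.2 CPM in other cells. It was detected in 100%, 99.3% and 100% of c1q-positive cells and was high in all 3 libraries. The granulin gene grn1, of the progranulin family, had 10431 (10155 to 10713) CPM for HepABC HCC, 3209.5 (3017 to 3411) for CreLox HCC and 507 (423 to 604) for no HCC, against 166, 66.0 and 79.4 CPM in other cells. The MHC class II gene mhc2dab had 5603 (5401 to 5811) CPM for HepABC HCC, 2661 (2486 to 2845) for CreLox HCC and 40.3 (19.3 to 74.1) for no HCC, against 39.8, 47.1 and 3.08 CPM in other cells. In no HCC grn1 was found in 42.5% and mhc2dab in 7.96% of c1q-positive cells, so that these genes marked the cells of the HCC livers and much less those of the control.

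Every gene was next compared between c1q-positive and all other cells, with the UMIs summed per library and the liver as a block (edgeR quasi-likelihood test, 3 livers). Of 5089 genes tested, 858 were higher in c1q-positive cells, which is 16.9%, and 883 were lower, which is 17.4%, at an adjusted p under 0.05. Since c1q transcripts chose the cells, genes that share their cells with c1q are higher by construction, and the counts below describe what the cells held. The median log2 fold change over all genes tested was -0.09. Without the CreLox HCC library 547 genes were higher and 535 lower.

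Genes of a list of macrophage and leukocyte genes, called the macrophage list, were higher nearly throughout. Of its 27 tested genes, 25 were higher and 0 lower, with a median log2 fold change of 4.47. The perforin-like macrophage gene mpeg1.1 had 849.8 (772 to 933) CPM for HepABC HCC, 1154 (1039 to 1277) for CreLox HCC and 1502 (1354 to 1663) for no HCC, against 3.86, 9.69 and 72.6 CPM in other cells, a log2 fold change of 5.93 ± 0.65 (SE, edgeR adjusted p = 3.59e-05). The macrophage gene mfap4 had 574, 394 and 354 CPM in HepABC HCC, CreLox HCC and no HCC, against 0.552, 3.14 and 2.46 CPM in other cells. The receptor of colony stimulating factor 1, csf1ra, was scarce, with 32.8, 71.3 and 52.4 CPM, but had only 2 UMIs in the other cells of all libraries. The myeloid transcription factor gene spi1a was even across livers at 552, 533 and 536 CPM, and its log2 fold change was 5.95 ± 0.58 (SE, edgeR adjusted p = 1.92e-05). The transcription factor genes mafbb and irf8 and the Fc receptor chain gene fcer1gl rose as well, by 6.13, 4.18 and 5.35 on the log2 scale, as did the phagocyte oxidase genes cybb, cyba and ncf1. The members of the list that did not pass were cebpa, at 1.36 ± 0.51 (SE, edgeR adjusted p = 0.0564), and nr1h3, at -1.40 ± 0.66 (SE, edgeR adjusted p = 0.123). None of these genes was part of the rule. The list took 1.54%, 1.35% and 1.36% of the UMIs of c1q-positive cells in HepABC HCC, CreLox HCC and no HCC. In lymphoid-panel cells (below) it took 0.585%, 0.606% and 0.679%, so its genes are in part shared by other leukocytes. The count over all other cells therefore does not by itself tell macrophages from other leukocytes. Over lymphoid-panel cells 19 of 27 genes of the list were higher and 1 lower. That count is in part fixed by the placing of cells, since lymphoid-panel cells had to hold fewer myeloid-panel than lymphoid-panel UMIs. The myeloid panel holds mpeg1.1, mfap4, csf1ra, spi1b, cybb, irf8, mafba, mafbb and cxcr3.2 of this list.

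The complement list without c1q held genes that rose and genes that fell. Of 17 genes tested, 3 were higher and 10 lower, with a median log2 fold change of -2.57. The count of higher genes was near the share of 16.9% over all genes tested. Properdin, cfp, the stabilizer of the alternative pathway convertase and a leukocyte product in mammals, had 172 (138 to 212) CPM for HepABC HCC, 177 (134 to 229) for CreLox HCC and 84.6 (52.3 to 129) for no HCC, against 0, 0.262 and 1.23 CPM in other cells, a log2 fold change of 8.05 ± 0.72 (SE, edgeR adjusted p = 1.08e-05). The others that rose were itgb2, the β chain of the complement receptor integrins, at 3.76 ± 0.44 (SE, edgeR adjusted p = 6.18e-05), and the membrane inhibitor cd59, at 2.29 ± 0.73 (SE, edgeR adjusted p = 0.0271). For cd59 the c1q-positive cells held 44, 17 and 1 UMIs in HepABC HCC, CreLox HCC and no HCC. Of the 17 in CreLox HCC, 13 lay in 3 cells, and the level in no HCC rests on 1 UMI. The genes that fell were c1r, the C3 genes c3a.1, c3a.2, c3a.3 and c3a.6, c4, cfb, cfd, cfh and serping1, by 2.40 to 5.30 on the log2 scale. All but cfd are products of hepatocytes in mammals. The C1q partner protease gene c1r had a log2 fold change of -3.03 ± 0.51 (SE, edgeR adjusted p = 0.000815), while c1s was at 0.04 ± 0.48 (SE, edgeR adjusted p = 0.96).

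Antigen presentation genes of class II were among the most abundant transcripts of the cells. Of 7 tested MHC class II genes 4 were higher and 0 lower, with a median log2 fold change of 4.78, namely cd74a, cd74b, mhc2dab and ifi30. The second invariant chain gene, cd74b, had 12486, 10953 and 13402 CPM in c1q-positive cells of HepABC HCC, CreLox HCC and no HCC, against 109.9, 334 and 944 CPM in other cells, and changed by 4.85 ± 0.65 (SE, edgeR adjusted p = 0.000164). The lysosomal thiol reductase gene ifi30, which unfolds antigens for class II, had 2231, 1966 and 1643 CPM, against 32.0, 45.6 and 109.6 CPM, and changed by 4.78 ± 0.54 (SE, edgeR adjusted p = 4.17e-05). The regulators ciita, rfxap and rfxank did not pass, at 1.29, 0.31 and 1.15. The MHC class I list was less separated, with 6 of 13 tested genes higher, 0 lower and a median of 1.18. Genes of the immunoproteasome and its activator, psmb8a, psmb9a, psmb13a and psme2, were among those that rose, by 1.34 to 1.70, while b2m did not pass at 1.24 ± 0.50 (SE, edgeR adjusted p = 0.0742).

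Most lysosomal genes tested rose. Of 38, 31 were higher and 1, the β-glucuronidase gene gusb, was lower, with a median log2 fold change of 3.24. The list took 5.32%, 4.20% and 2.03% of the UMIs of c1q-positive cells in HepABC HCC, CreLox HCC and no HCC, against 0.216%, 0.186% and 0.287% in other cells. The aspartic protease cathepsin D, ctsd, had 6932 (6707 to 7162) CPM for HepABC HCC, 5299.6 (5051 to 5557) for CreLox HCC and 1103 (977 to 1242) for no HCC, against 133, 82.7 and 73.2 CPM in other cells, and changed by 4.84 ± 0.58 (SE, edgeR adjusted p = 7.01e-05). The prosaposin gene psap, whose product activates sphingolipid hydrolases, had 4591, 4503 and 2505 CPM, against 283, 121 and 186 CPM. The cysteine protease genes ctsba, ctss2.1, ctsc, ctsh, ctsk and ctsz and the legumain gene lgmn changed by 4.88, 5.59, 5.18, 4.37, 4.68, 3.58 and 4.88. The lysozyme-like gene lygl1, the ganglioside activator gene gm2a and the tripeptidyl peptidase gene tpp1 were higher by 5.07, 4.76 and 4.96. Only ctsla among the cathepsin genes tested did not pass, at 1.05 ± 0.58 (SE, edgeR adjusted p = 0.195). Its values differed by liver, as described below. The cholesterol transporter npc2 rose by 2.87, while its partner npc1 was at -0.38 ± 0.50 (SE, edgeR adjusted p = 0.614).

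Genes of uptake and clearance were higher in 11 of 15 tested and lower in 3, with a median of 2.12. The scavenger receptor gene marco, which binds bacteria and particles, had 739.7 (667 to 818) CPM for HepABC HCC, 692 (604 to 788) for CreLox HCC and 185 (136 to 247) for no HCC, against 1.66, 3.14 and 1.85 CPM in other cells, and changed by 7.41 ± 0.57 (SE, edgeR adjusted p = 8.26e-06). The TIM family gene havcr1, whose relatives bind phosphatidylserine on dying cells, had 1257, 905 and 809 CPM, against 3.59, 6.81 and 8.62 CPM, and havcr2 rose by 6.79. The receptor tyrosine kinase gene mertka was lower in level, at 57.9, 52.7 and 16.1 CPM, and rose by 2.79. The genes that fell were pros1, anxa1a and cd9b. Of 11 iron and heme genes 2 were higher and 4 lower, while over all genes tested 16.9% were higher and 17.4% lower. The 2 higher genes thus do not set this list apart from all genes. The heme oxygenase gene hmox1a and the iron exporter gene slc40a1, both typical of red cell recycling macrophages in mammals, rose by 3.36 ± 0.59 (SE, edgeR adjusted p = 0.00104) and 3.86 ± 0.60 (SE, edgeR adjusted p = 0.000454). Those that fell were the hepatocyte genes cp, hamp and hpx and the ferrireductase gene steap4. The rest, fth1a, slc11a2, slc48a1b, blvrb and nfe2l2a, did not pass. Of 13 lipid genes 5 were higher and 5 lower. The leukotriene synthesis gene alox5ap rose by 5.85 and the cholesterol hydroxylase gene ch25h by 4.26, while apoeb was at -0.97 ± 0.45 (SE, edgeR adjusted p = 0.119).

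Several cytokine genes were sparse and higher in these cells. Of 22 inflammation genes 9 were higher and 3 lower, with a median of 1.01, and of 18 chemokine and receptor genes 9 were higher and 5 lower, with a median of 1.18. The neutrophil attractant gene cxcl8a had 71.5 (50.3 to 98.5) CPM for HepABC HCC, 27.9 (12.8 to 53.0) for CreLox HCC and 286 (223 to 361) for no HCC, against 0.276, 0.262 and 0.616 CPM in other cells. Interleukin 1β, il1b, had 46.4 (29.7 to 69.0) CPM for HepABC HCC, 31.0 (14.9 to 57.0) for CreLox HCC and 169 (122 to 229) for no HCC, against 0.276, 0.262 and 3.69 CPM in other cells, and changed by 5.85 ± 0.54 (SE, edgeR adjusted p = 1.51e-05). The levels rest on 37, 9 and 71 UMIs of cxcl8a and 24, 10 and 42 of il1b in HepABC HCC, CreLox HCC and no HCC. The chemokine genes ccl34b.1 and ccl34a.4 were more abundant, at 446, 1423 and 1498 CPM and at 323, 1069.8 and 1176 CPM, and rose by 6.41 and 8.06. Among receptors, cxcr3.2, ccr2, cxcr4b and ccr9a rose by 6.43, 4.95, 3.65 and 3.35, whereas the decoy receptor genes ackr3b and ackr4b fell, ackr3b by 3.58. Of 12 interferon genes 5 were higher and 0 lower, with a median of 1.40. The 3 proliferation genes tested, pcna, tubb2b and hmgb2a, were at 0.35, 0.30 and 0.65, and none passed, also at an unadjusted p under 0.05.

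Markers of other cell types were counted in the same cells. All 21 hepatocyte genes were lower, with a median of -2.56, as were 3 of 3 erythrocyte, 3 of 3 stellate and 5 of 7 endothelial genes tested. The endothelial list took 0.00811%, 0.00775% and 0.0117% of the UMIs of c1q-positive cells, against 0.0112%, 0.0277% and 0.0773% in other cells, and pecam1 was at 0 in all 3 libraries. The neutrophil list took 0.0790%, 0.0264% and 0.0515%, against 0.0820%, 0.0231% and 0.0246% in other cells, with s100z at 0 throughout. Of its 5 tested genes 2 were higher and 1 lower. At least 3 UMIs and 0.2% of UMIs in this list were found in 16 of 202, 2 of 141 and 0 of 113 c1q-positive cells. Its member lect2l had 475, 62.0 and 20.1 CPM, with a HepABC HCC ratio over no HCC of 23.6, against 2.96 in other cells. The T and NK cell list took 0.108%, 0.0459% and 0.109%, against 0.0454%, 0.219% and 0.328% in other cells. By the rule for a panel of 22 lymphocyte genes (at least 3 UMIs and 0.2% of UMIs), 18 of 202, 2 of 141 and 7 of 113 c1q-positive cells also passed as lymphoid. The NK-lysin gene nkl.1 was at 0 in CreLox HCC and no HCC and had 29 UMIs in HepABC HCC, 19 of them in 1 cell. The part of such cells in the values of HepABC HCC was not tested. The cholangiocyte list, of bile duct cells, had 1 of 10 tested genes higher and 8 lower, and took 0.372%, 0.259% and 0.176% of UMIs, against 0.454%, 0.324% and 0.559% in other cells. By the same rule 154 of 202, 73 of 141 and 17 of 113 c1q-positive cells passed on it. Of its 1924, 834 and 437 UMIs there, 921, 457 and 197 were of the tetraspanin gene tspan36, the member that rose, and 506, 170 and 91 of the keratin gene krt8, which fell, while epcam was at 0 in HepABC HCC and krt4 in both HCC livers. The part of this list in the differences between livers was not tested. The B cell list was passed by 202, 140 and 113 cells and had 2 of 3 tested genes higher, with a median of 5.40. Of its 14117, 9204 and 12148 UMIs, 13835, 8991 and 11951 were of cd74a, which macrophages share, and the other member that rose was cd22.

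The 20 genes with the highest fold over all other cells, c1q aside, had log2 fold changes between 7.03 and 8.67. They included the macrophage genes already named, mfap4, marco, csf1ra, cfp, cxcl8a and ccl34a.4, and a second locus that the files list under the MFAP4 name. The membrane-spanning gene ms4a17a.10 was the most abundant of the 20, with 2511 (2376 to 2651) CPM for HepABC HCC, 1845 (1699.8 to 1999) for CreLox HCC and 2501 (2308 to 2705) for no HCC, against 4.97, 6.81 and 24.6 CPM in other cells. The galectin-3 binding protein gene lgals3bpb had 832, 1203 and 1583 CPM, against 1.38, 4.19 and 9.23 CPM. The integrin gene itgae.1, the transporter gene slc22a21, the tubulin polymerization gene tppp, the sialic acid binding lectin gene cd22 and the Toll-like receptor gene tlr1 were also among them. Of the 20, 6 carry clone names only, and reads of close gene copies such as the mfap4, ccl34 and ms4a17a families may be split by the counting. The genes si:ch73-380l3.4 and si:dkey-187i8.2 had no UMI in any other cell. Against a floor of 3 UMIs in other cells, si:ch73-380l3.4 was 90.9-fold, 19.7-fold and 21.8-fold higher in HepABC HCC, CreLox HCC and no HCC. On its 39, 5 and 10 UMIs the lower counting limits of the ratio were 70.5, 10.9 and 14.7. Against that floor si:dkey-187i8.2 was 18.7-fold, 35.5-fold and 13.1-fold higher. On its 8, 9 and 6 UMIs the lower counting limits were 11.9, 23.4 and 7.70. The 20 were picked by their fold in these data, so their separation in the plot of these genes is a description. In every library the open points of other cells lay below the intervals of c1q-positive cells.

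**Figure D2:**
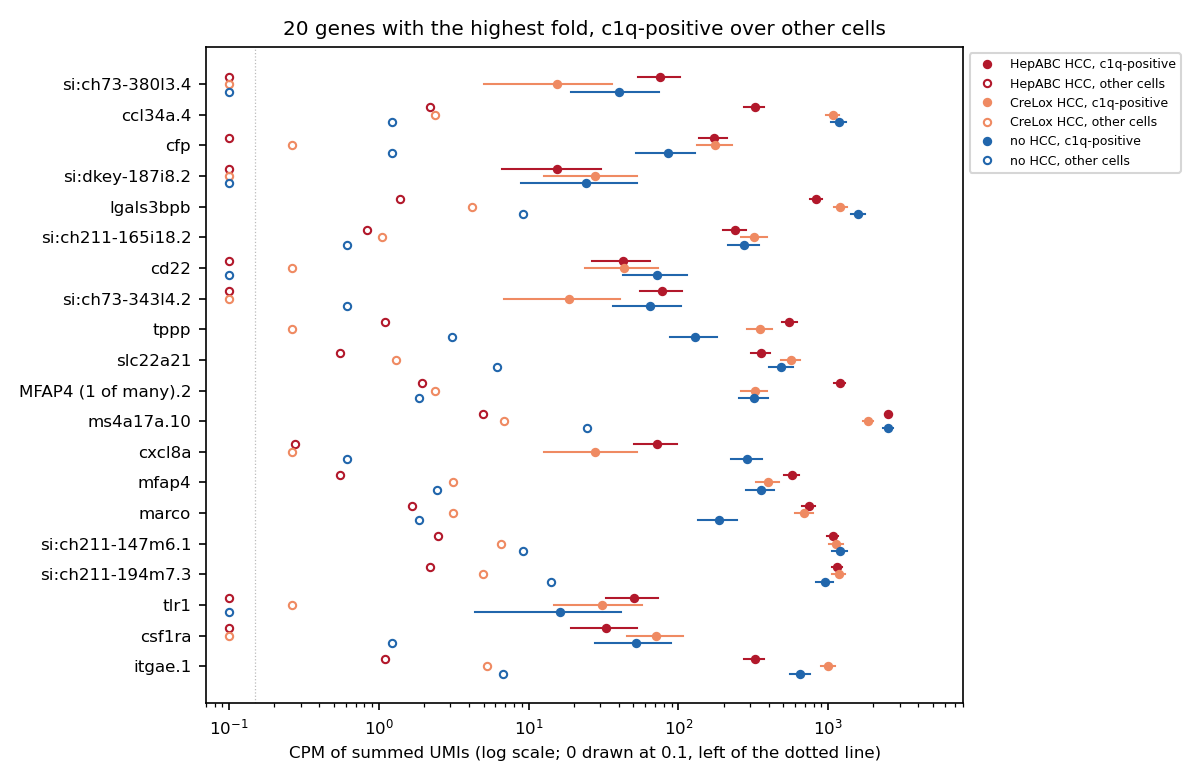
For the 20 genes with the highest log2 fold change, filled points give CPM of summed UMIs in c1q-positive cells with their 95% Poisson interval and open points CPM in all other cells under 10000 UMIs, in 3 libraries (x axis, log scale). Genes run from si:ch73-380l3.4 at the top to itgae.1 at the bottom, and ms4a17a.10 is highest in level at 2511, 1845 and 2501 CPM.

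At the other end, the 8 genes with the lowest fold were cxcl8b.3, krt15, mmp2, hbba1, hbba1.1, krt91, podxl and ctgfa. They are keratins, β-globins, a matrix metalloproteinase, a podocalyxin, a matricellular factor and a chemokine. The genes cxcl8b.3, krt15 and mmp2 had no UMI in any c1q-positive cell, against 55.5, 17.5 and 54.8 CPM for cxcl8b.3 in other cells of HepABC HCC, CreLox HCC and no HCC. With a floor of 3 UMIs, cxcl8b.3 was 9.58-fold, 1.89-fold and 4.53-fold lower, with the counting error of the other cells left out. The close gene cxcl8a was thus held by c1q-positive cells and cxcl8b.3 by others. The globin gene hbba1.1 had 0, 18.6 and 24.2 CPM in c1q-positive cells, against 1.66, 599 and 6070.3 CPM in other cells.

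Against other immune and endothelial cells the same cells were compared in 1 fit over 5 populations. Cells without the c1q rule were placed by panels of marker genes, which gave 74, 221 and 221 lymphoid-panel cells, 20, 63 and 64 endothelial-panel cells and 7, 25 and 15 myeloid-panel cells in HepABC HCC, CreLox HCC and no HCC. Over lymphoid-panel cells, 590 of 4295 genes were higher, which is 13.7%, and 309 were lower, which is 7.19%. The lysosome list had 30 of 34 genes higher and 0 lower, the macrophage list 19 of 27 higher and 1 lower, and the class II list 4 of 6 higher. The macrophage count includes myeloid-panel genes, which the placing of cells limited in lymphoid-panel cells. None of 13 class I genes passed in either direction in this contrast, also at an unadjusted p under 0.05 (edgeR only). Over lymphoid-panel cells ctsd changed by 6.71 ± 0.63 (SE, edgeR adjusted p = 2.51e-08), lgmn by 7.24 ± 0.57 (SE, edgeR adjusted p = 2.63e-09) and cd74a by 4.09 ± 0.38 (SE, edgeR adjusted p = 2.55e-08). The chemokine receptor gene cxcr4b, shared by leukocytes, changed by 1.56 ± 0.48 (SE, edgeR adjusted p = 0.0207) and b2m by -0.36 ± 0.32 (SE, edgeR adjusted p = 0.516).

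Over endothelial-panel cells, 649 of 4296 genes were higher, which is 15.1%, and 554 were lower, which is 12.9%. The lysosome list had 27 of 34 genes higher and 0 lower there. The comparison with myeloid-panel cells was weak, since HepABC HCC held too few such cells. Its myeloid-panel sum was left out of the fit, while its other populations stayed in. It called 16 of 4295 genes higher, which is 0.373%, and 3 lower, which is 0.0698%. Fitting only these populations left 0 genes higher and 1 lower of 1252 tested, with 68 higher and 25 lower at an unadjusted p under 0.05, and only edgeR was run on it. The highest genes outside the panels were si:ch211-165i18.2 at 10.29 ± 1.80 (SE, edgeR adjusted p = 0.00802), ccl34a.4 at 4.33 ± 0.80 (SE, edgeR adjusted p = 0.00816), itgae.1 at 4.14 ± 0.71 (SE, edgeR adjusted p = 0.00572), slc22a21 at 4.05 ± 0.78 (SE, edgeR adjusted p = 0.0104) and lgals3bpb at 3.73 ± 0.60 (SE, edgeR adjusted p = 0.00295). The 3 lower genes were the chemokine gene ccl19a.1 at -9.15 ± 1.04 (SE, edgeR adjusted p = 3.57e-05), the proteoglycan gene spock3 at -5.26 ± 0.80 (SE, edgeR adjusted p = 0.000882) and si:dkey-78o7.3 at -4.09 ± 0.75 (SE, edgeR adjusted p = 0.00732). The locus si:ch211-165i18.2 had no UMI in the myeloid-panel cells of CreLox HCC and no HCC, so its fitted fold is no bound. For ccl19a.1 neither population of CreLox HCC had a UMI, and the call rests on the myeloid-panel cells of no HCC, at 12286 CPM. Without the no HCC library it turned to 2.69. Neither grn1, at -0.57 ± 0.60 (SE, edgeR adjusted p = 0.813), nor ctsd, at 1.34 ± 0.58 (SE, edgeR adjusted p = 0.502), passed against the myeloid-panel cells, and of the lysosome list 0 of 34 genes passed in either direction, with 13 higher and 0 lower at an unadjusted p under 0.05 (edgeR only).

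Between libraries, a gene of the c1q-positive cells was called past the fold if its CPM ratio was at least 4 or at most 0.25, with an interval that left out 1, among genes with at least 20 UMIs in both libraries together. HepABC HCC over no HCC had 140 of 2697 genes past the fold upwards, which is 5.19%, and 73 downwards, which is 2.71%. CreLox HCC over no HCC had 56 of 2141 upwards, 2.62%, and 29 downwards, 1.35%. HepABC HCC over CreLox HCC had 60 of 2894 upwards, 2.07%, and 28 downwards, 0.968%. Median log2 ratios were 0.16, 0.17 and 0.01. Scaling by TMM instead of total UMIs gave 0.18, 0.04 and 0.16. The first 2 comparisons share the no HCC library and are not independent of each other.

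Several lysosomal genes were higher in c1q-positive cells of both HCC livers than in those of no HCC. In HepABC HCC over no HCC 7 of 34 genes of the list passed the fold upwards and 0 downwards, with a median log2 ratio of 0.83, and in CreLox HCC over no HCC 5 of 33 and 0, with a median of 0.87. HepABC HCC over CreLox HCC had 0 of 37 in either direction, with a median of 0.02. The genes past the fold in HepABC HCC were grn1, grn2, ctsc, ctsd, ctsla, ctsz and lgmn, and in CreLox HCC grn1, grn2, ctsd, ctsla and lgmn. With a stricter rule for c1q-positive cells (at least 5 UMIs and 0.5%), 4 of 33 passed in HepABC HCC over no HCC. The ratio for grn1 was 20.6 (17.2 to 24.7) in HepABC HCC over no HCC and 6.33 (5.25 to 7.67) in CreLox HCC over no HCC. In all other cells the same grn1 ratios were 2.09 and 0.831, and in lymphoid-panel cells 43.0 (13.7 to 217) and 3.31 (0.893 to 18.3). In HepABC HCC the grn1 ratio of lymphoid-panel cells was thus not below that of c1q-positive cells, and the difference was not particular to c1q-positive cells there. For ctsd the ratios were 6.28 (5.55 to 7.13) and 4.80 (4.23 to 5.48), against 1.81 and 1.13 in all other cells. Legumain, lgmn, had 3359 (3203 to 3520.3) CPM for HepABC HCC, 2661 (2486 to 2845) for CreLox HCC and 588 (496 to 691) for no HCC, and its ratios were 5.71 (4.82 to 6.81) and 4.53 (3.79 to 5.43). So for grn1 and ctsd the ratios in c1q-positive cells were above those in all other cells of the same livers, and lgmn in other cells was at 52.2, 59.7 and 31.4 CPM.

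The cathepsin L gene ctsla had 487 (428 to 551) CPM for HepABC HCC, 481 (408 to 563) for CreLox HCC and 36.2 (16.6 to 68.8) for no HCC, against 108, 79.9 and 73.2 CPM in other cells. In no HCC its level in c1q-positive cells was thus below that in other cells, and its 9 UMIs there lay in 7 cells. A second granulin gene, grn2, had 966 (883 to 1054) CPM for HepABC HCC, 819 (723 to 924) for CreLox HCC and 24.2 (8.87 to 52.6) for no HCC, against 115, 12.8 and 1.85 CPM in other cells. Its ratios over no HCC were 40.0 (18.2 to 109) and 33.9 (15.4 to 93.2) in c1q-positive cells, but in other cells they were 62.0 and 6.95, so in HepABC HCC the rise was shared with other cells. The granulin genes are close relatives, and the counting may have split reads between them. Not all lysosomal genes followed. The cathepsin S gene ctss2.1 had 1197 CPM for HepABC HCC, 1203 for CreLox HCC and 1804 for no HCC and was lower in both HCC livers, with ratios of 0.664 (0.587 to 0.751) and 0.667 (0.581 to 0.766). For ctsba the ratios were 2.37 (2.05 to 2.76) and 3.47 (2.99 to 4.04). The hepatocyte list was lower in c1q-positive cells of both HCC livers (above). When levels were scaled without mitochondrial and hepatocyte genes and the 20 highest genes of other cells, 7 of 34 and 5 of 33 lysosomal genes again passed the fold over no HCC.

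Differences in depth were removed by thinning every cell to 1000 UMIs. Thinning kept 188, 116 and 102 c1q-positive cells. Then grn1 was detected in 89.9%, 71.6% and 28.4% of c1q-positive cells of HepABC HCC, CreLox HCC and no HCC, against 3.82%, 2.56% and 3.78% of other cells. For ctsd the shares were 76.1%, 75.9% and 50%, against 8.22%, 4.59% and 6.74%, and for lgmn 43.6%, 56.0% and 27.5%, against 3.38% of other cells in HepABC HCC and 1.64% in no HCC. The scavenger receptor gene marco was detected in 43.1%, 39.7% and 16.7%, against 0.294%, 0.405% and 0.164%. The higher share in both HCC livers therefore remained at equal depth. Before thinning, grn1 was found in 92.6%, 81.6% and 42.5% and ctsd in 85.6%, 83.7% and 61.1% of all c1q-positive cells.

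**Figure D3:**
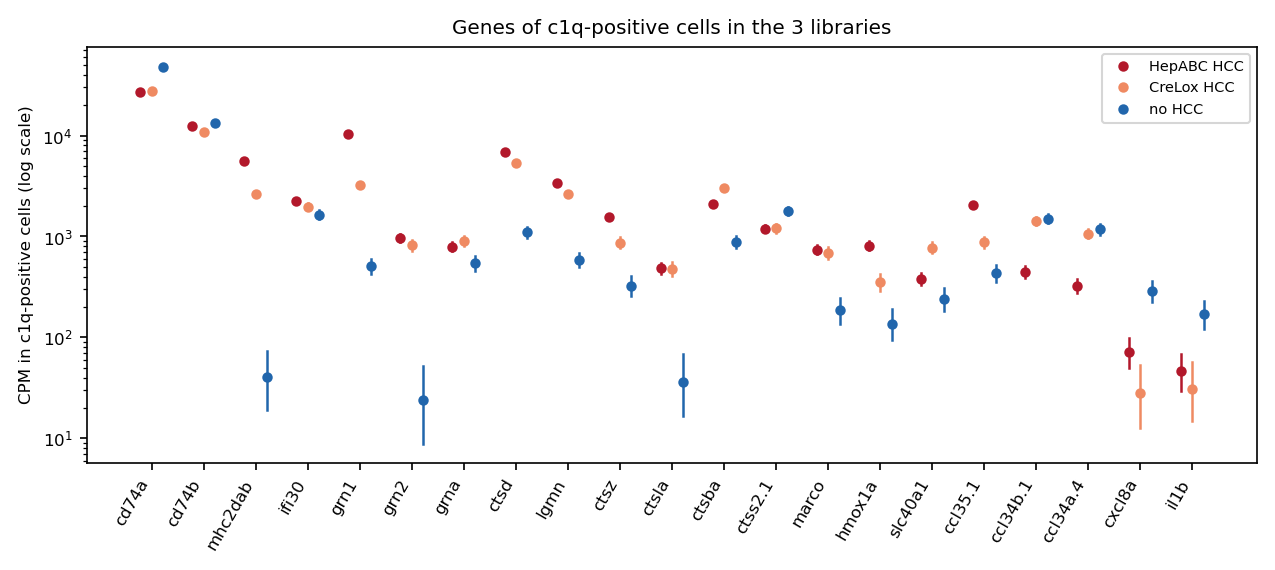
CPM of summed UMIs in c1q-positive cells (y axis, log scale) of HepABC HCC, CreLox HCC and no HCC for 21 genes, with 95% Poisson intervals as bars. Class II genes stand at the left, lysosomal genes in the middle and clearance, iron and cytokine genes at the right, and grn1, grn2, ctsd, lgmn and ctsla lie lowest in no HCC while cxcl8a and il1b lie highest there.

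Class II genes did not differ in 1 direction. In c1q-positive cells cd74a was lower in both HCC livers, with ratios over no HCC of 0.555 (0.542 to 0.569) and 0.579 (0.564 to 0.595), and cd74b was nearly even at 0.932 (0.893 to 0.972) and 0.817 (0.779 to 0.857). The gene mhc2dab was higher in both, with ratios of 139 (75.5 to 290.4) and 66.1 (35.8 to 138). It was detected at 1000 UMIs in 95.2%, 78.4% and 4.90% of c1q-positive cells of HepABC HCC, CreLox HCC and no HCC, against 6.17%, 4.32% and 0.164% of other cells. Another class II β gene, zgc:103700, annotated as mhc2dhb in the GRCz12tu assembly, ran the opposite way at 3.86 (0.468 to 14.0) CPM for HepABC HCC, 518 (442 to 603) for CreLox HCC and 1281 (1144 to 1429) for no HCC. It was detected in 0.99%, 50.4% and 77.9% of c1q-positive cells, and its ratios over no HCC were 0.00302 (0.000364 to 0.011) and 0.404 (0.333 to 0.489). It had the lowest ratio in HepABC HCC over no HCC and in HepABC HCC over CreLox HCC within a filtered set of genes. These had at least 2 times the CPM of other cells in c1q-positive cells of either library compared. The locus si:busm1-266f07.2, which the tables used here do not annotate and which was picked after its values were seen, was more abundant and had the same order, at 1653 (1544 to 1768) CPM for HepABC HCC, 7939 (7634 to 8252) for CreLox HCC and 15830.3 (15339 to 16333) for no HCC. Its ratios over no HCC were 0.104 (0.0969 to 0.112) and 0.501 (0.477 to 0.527).

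Lymphoid-panel cells showed the same order of livers. They had mhc2dab at 455, 243 and 6.00 CPM, zgc:103700 at 0, 22.3 and 45.0 CPM and si:busm1-266f07.2 at 271, 821 and 1104 CPM in HepABC HCC, CreLox HCC and no HCC. The mhc2dab ratios of lymphoid-panel cells over no HCC were 75.7 (19.8 to 644) and 40.5 (10.9 to 339), so the difference was not particular to c1q-positive cells. In all other cells together mhc2dab was lowest in no HCC too, but at 39.8, 47.1 and 3.08 CPM it was not highest in HepABC HCC. Class II loci are near-copies of each other, so reads may have gone to a sister locus, and a single gene's level is uncertain as a level of the class II molecule. The fish and the group cannot be told apart here.

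Many genes that mark the cells were nearly even across the livers. The ratios over no HCC of spi1a were 1.03 (0.837 to 1.28) and 0.996 (0.79 to 1.26), those of fcer1gl 1.09 (0.982 to 1.21) and 1.06 (0.944 to 1.19), and those of ms4a17a.10 1.00 (0.912 to 1.11) and 0.738 (0.658 to 0.827). Of the macrophage list 1 of 27 genes, the oxidase gene ncf4, passed the fold in HepABC HCC over no HCC, with a ratio of 10.6 (1.71 to 435) that rests on 1 UMI in no HCC, and 0 of 26 did in CreLox HCC over no HCC. The macrophage gene mpeg1.1 was lower in both HCC livers, at 0.566 (0.492 to 0.651) and 0.768 (0.663 to 0.889). None of the MHC class I genes, 13, 11 and 12 of them, passed the fold in any of the 3 comparisons. Over all genes 5.19%, 2.62% and 2.07% passed upwards and 2.71%, 1.35% and 0.968% downwards. Counts this small in the macrophage and class I lists therefore do not set them apart from all genes.

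Clearance and iron genes were also uneven. For marco the ratios over no HCC were 3.99 (2.94 to 5.55) and 3.73 (2.71 to 5.25), just short of the fold limit. Heme oxygenase, hmox1a, had 813 (737 to 895) CPM for HepABC HCC, 350.4 (289 to 421) for CreLox HCC and 137 (94.8 to 191) for no HCC and a ratio of 5.94 (4.18 to 8.69) in HepABC HCC over no HCC, against 0.395 in other cells. Of its 34 UMIs in no HCC, 22 lay in 1 cell, and of its 421 in HepABC HCC 208 lay in 3 cells. The heme importer gene slc48a1b and the biliverdin reductase gene blvrb passed the fold as well in HepABC HCC, with ratios of 7.91 (2.02 to 68.1) and 9.11 (2.35 to 78.0), which rest on 2 UMIs of each in no HCC, under the floor of 3. The iron exporter slc40a1 was instead highest in CreLox HCC, at 380.5 CPM for HepABC HCC, 772 for CreLox HCC and 242 for no HCC. The fatty acid binding protein gene fabp11a had 295 (251 to 346) CPM for HepABC HCC, 1005 (898 to 1120.3) for CreLox HCC and 133 (91.5 to 187) for no HCC, and its CreLox HCC ratio over no HCC was 7.56 (5.28 to 11.2), against 0.294 in other cells. It was found in 24.8%, 48.9% and 7.08% of c1q-positive cells, and 89 of its 324 UMIs in CreLox HCC lay in 1 cell. The apolipoprotein E gene apoeb had 448 CPM for HepABC HCC, 80.6 for CreLox HCC and 113 for no HCC. Of its 232 UMIs in HepABC HCC 147 lay in 3 cells.

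The inflammatory genes cxcl8a, il1b and ptgs2b were lower in both HCC livers than in no HCC. The ratios of cxcl8a over no HCC were 0.25 (0.163 to 0.377) for HepABC HCC and 0.0976 (0.0429 to 0.196) for CreLox HCC, and those of il1b were 0.274 (0.159 to 0.463) and 0.183 (0.082 to 0.371). The prostaglandin synthase gene ptgs2b had 5.79 CPM for HepABC HCC, 46.5 for CreLox HCC and 96.6 for no HCC, and its counting intervals overlapped between CreLox HCC and no HCC. In other cells il1b and ptgs2b were lower as well, and the cxcl8a interval there held 1, with ratios over no HCC of 0.449 and 0.425 for cxcl8a, 0.0748 and 0.0709 for il1b and 0.0897 and 0.0851 for ptgs2b, on 1 to 6 UMIs of each gene in each library. At 1000 UMIs cxcl8a was detected in 3.19%, 1.72% and 13.7% and il1b in 4.26%, 3.45% and 12.7% of c1q-positive cells, against 0.147%, 0.0674% and 0% for cxcl8a in other cells. The counts are small, 6, 2 and 14 cells for cxcl8a. Over the inflammation list HepABC HCC over no HCC had 0 of 17 genes past the fold upwards and 2 downwards, and CreLox HCC over no HCC had 1 and 2 of 17. The chemokine gene ccl35.1 ran the other way, with 2068 (1946 to 2196) CPM for HepABC HCC, 874 (775 to 983) for CreLox HCC and 431 (353 to 521) for no HCC and a ratio of 4.80 (3.93 to 5.91) for HepABC HCC over no HCC, against 0.134 in other cells. The chemokine genes ccl36.1 and ccl39.2 were instead lower in both HCC livers, with ratios over no HCC of 0.00716 and 0.138 for ccl36.1 and 0.0920 and 0.0949 for ccl39.2, and both were also lower in the other cells of these livers. The interferon-type chemokine genes cxcl11.6 and cxcl11.1 were highest in CreLox HCC, at 50.2, 449.6 and 48.3 CPM and 32.8, 205 and 20.1 CPM. Of 145 cxcl11.6 UMIs in CreLox HCC 137 came from 1 cell, and of 66 cxcl11.1 UMIs 65 came from 3 cells, so these levels describe a few cells. The signalling gene stat2 was spread more widely, with 60 UMIs in 49 cells of HepABC HCC and a level of 116 CPM for HepABC HCC, 18.6 for CreLox HCC and 20.1 for no HCC. Its HepABC HCC ratios were 6.23 over CreLox HCC and 5.76 over no HCC, beside 4.22 and 1.74 in other cells.

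Some genes had no UMI in the no HCC c1q-positive cells. The immunoglobulin family gene cd7al had 251, 171 and 0 CPM in HepABC HCC, CreLox HCC and no HCC. It was 20.8-fold and 14.1-fold above a floor of 3 UMIs in no HCC, with the counting error of the HCC livers left out. It lay in 19 of 202 and 9 of 141 cells. In HepABC HCC 53 of its 130 UMIs lay in 3 cells, and in CreLox HCC 37 of its 55 lay in 3 cells. The adhesion gene alcama had 108, 65.1 and 0 CPM, and the annexin gene anxa2a had 191, 12.4 and 0 CPM, in HepABC HCC 15.8-fold above that floor. The locus si:dkey-188i13.6, annotated as ifi27.3, of a family of interferon-inducible genes, in the GRCz12tu assembly, had 160.3, 71.3 and 0 CPM. The locus si:dkey-1c7.1 was found in HepABC HCC only among the 3 libraries' c1q-positive cells, at 104, 0 and 0 CPM, and lymphoid-panel cells had it at 193, 22.3 and 18.0 CPM. Lactate dehydrogenase A, ldha, was lower in both HCC livers, at 21.2 CPM for HepABC HCC, 46.5 for CreLox HCC and 262 for no HCC, and its ratios over no HCC were 0.0812 (0.0386 to 0.155) and 0.178 (0.0941 to 0.315), beside 0.0431 and 0.282 in other cells. The loci BX322618.1 and BX248082.1 were lowest in HepABC HCC c1q-positive cells, at 9.66, 242 and 588 CPM and 85.0, 614 and 1119.5 CPM, and also in its lymphoid-panel cells, at 19.3, 1119 and 1410.1 CPM and 174, 1725 and 1692 CPM. The next rankings hold only genes whose CPM in c1q-positive cells was at least 2 times that in other cells of either library compared. Among such genes the lowest CreLox HCC ratios over no HCC, besides cxcl8a and ldha, were those of AL831726.2, trnau1apb and CABZ01001434.1. HepABC HCC over CreLox HCC was lowest among such genes for zgc:103700, BX322618.1, cxcl11.6, atp5mea and AL935300.2. It was highest for si:dkey-16p6.1.17, si:dkey-1c7.1, tnfrsf9a, nkl.1 and prdx1, none of which had a UMI in CreLox HCC c1q-positive cells. Of these, tnfrsf9a and nkl.1 had 232, 156 and 129 CPM and 435, 288 and 324 CPM in lymphoid-panel cells, and 10 of the 23 prdx1 UMIs in HepABC HCC lay in 1 cell.

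Single c1q-positive cells differed widely within each library. Lysosomal genes had a median of 3.96% of a cell's UMIs in HepABC HCC, with a range from 0.248% to 26.3%. In CreLox HCC the median was 3.39%, from 0.596% to 13.2%, and in no HCC 1.67%, from 0.160% to 7.40%. The share of cd74a had a median of 2.68%, 2.13% and 4.69%. No UMI of ctsd was seen in 29 of 202, 23 of 141 and 44 of 113 cells, and none of grn1 in 15, 26 and 65. Between its quartiles the lysosome share ran from 2.58% to 5.95% in HepABC HCC, from 2.04% to 5.11% in CreLox HCC and from 1.09% to 2.35% in no HCC. The quartile ranges of HepABC HCC and no HCC thus did not overlap, while the full ranges did.

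**Figure D4:**
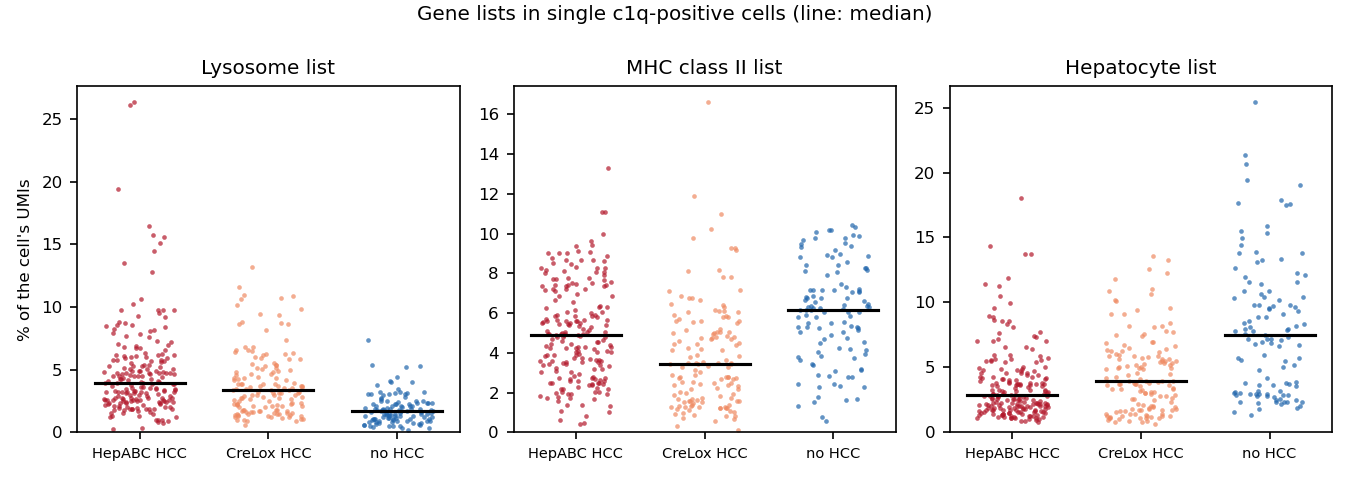
Each point is a c1q-positive cell and gives the share of its UMIs in the lysosome, MHC class II and hepatocyte lists (y axis, percent), in HepABC HCC, CreLox HCC and no HCC, with the median as a line. The lysosome medians are 3.96%, 3.39% and 1.67%, and the clouds of the 3 libraries overlap in each list.

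Across the cells of a library, genes fell into groups that varied together. Spearman correlations of shares of UMIs are given as descriptions over 202, 141 and 113 cells, which share their library, their free RNA and a dependence on depth. The c1q sum went with cd74a at 0.53, 0.60 and 0.67 and with ms4a17a.10 at 0.62, 0.65 and 0.65, and cd74a went with cd74b at 0.79, 0.82 and 0.83. Lysosomal genes formed another group, in which ctsd went with lgmn at 0.75, 0.75 and 0.40 and with grn1 at 0.61, 0.49 and 0.43. Between genes of these groups, cd74a and ctsd were at -0.26, -0.22 and 0.08, and cd74a and lgmn at -0.37, -0.27 and 0.02. With the stricter rule, the no HCC values turned to -0.14 and -0.17, so the sign there was not stable. The c1q sum and ctsd were at -0.07, 0.07 and 0.27. Whole lists behaved otherwise in no HCC. The class II list went with the lysosome list at -0.13, 0.07 and 0.49, and the c1q sum with the lysosome list at 0.02, 0.30 and 0.62, so these lists varied together in no HCC and little or not in HepABC HCC. With the hepatocyte list, the class II list went at -0.01, -0.49 and -0.48 and the lysosome list at -0.23, -0.27 and -0.52. The c1q sum went with it at -0.20, -0.50 and -0.51. The part of free hepatocyte RNA in the values of the lists was not tested. In no HCC the class II and lysosome lists also went with total UMIs, at 0.36 for class II and 0.35 for the lysosome. Depth touched other genes more, since fabp10a shares went with total UMIs at -0.65, -0.79 and -0.75, and the inflammation list at 0.30, 0.47 and 0.64.

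Of 653 genes detected in at least 20% of cells of each library, those whose shares varied most like the c1q sum in every library were cd74b, ms4a17a.10, cd74a, si:busm1-266f07.2, vsir, si:dkey-5n18.1, gm2a and sftpbb. The locus si:dkey-5n18.1 is annotated as c1ql1, a gene of the C1q-like family, in the GRCz12tu assembly. It had 2864 (2720.3 to 3014) CPM for HepABC HCC, 3191 (2999 to 3392) for CreLox HCC and 1482 (1334 to 1641) for no HCC, against 8.01, 20.9 and 18.5 CPM in other cells. The surfactant protein-like gene sftpbb had 469 CPM for HepABC HCC, 1023 for CreLox HCC and 2400.1 for no HCC and the immune checkpoint gene vsir 767 CPM for HepABC HCC, 695 for CreLox HCC and 934 for no HCC. Among the genes least like the c1q sum were RPL41 and the hepatocyte genes apoa2, apoc1 and tfa. Those most like ctsd, of 655 genes, were grn1, npc2, zgc:174904, lgmn, slc35f6, ctsz, psap and tspan36. Of these 8, 5 belong to the lysosome list. The genes in this paragraph were chosen after their values were seen.

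**Figure D5:**
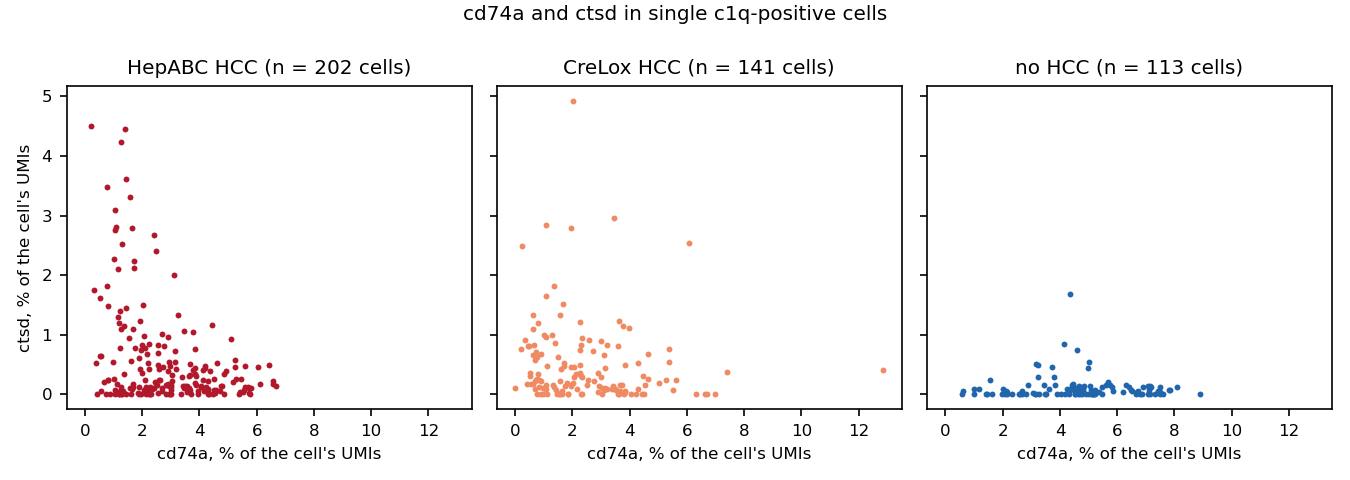
Each point is a c1q-positive cell, by the share of its UMIs in cd74a (x axis, percent) and in ctsd (y axis, percent), in HepABC HCC, CreLox HCC and no HCC. The Spearman correlations are -0.26, -0.22 and 0.08, and 29 of 202, 23 of 141 and 44 of 113 cells lie at 0 for ctsd.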

How the data were processed

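Livers of 3 zebrafish were dissociated and run as 1 library each with 10x 3′ v2 chemistry, per the labels and the study's methods. The deposited matrices hold counts of UMIs per gene and cell, which the authors made with Cell Ranger 2.2.0 on GRCz11 with transgene sequences added, after which they removed empty droplets and low-quality cells. Total deposited UMIs were 47680774 for HepABC HCC, 9066031 for CreLox HCC and 5404507 for no HCC. The tables list 14713, 12804 and 12386 genes, of which 11233 are in all, and comparisons between libraries used those. Free RNA was not subtracted and doublets were kept.

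UMIs were summed per population and library and tested with edgeR 4.0.16 (filterByExpr, TMM, quasi-likelihood F-test, library as block, Benjamini-Hochberg adjustment over all genes tested) in R 4.3.3. Each SE given was worked back from the test, as the size of the log2 fold change divided by the square root of its F statistic. Cells of other populations had at least 3 UMIs and 0.2% of UMIs in a panel of markers, and a population under 10 cells in a library was left out. Between libraries, CPM of summed UMIs had exact Poisson intervals, and ratios exact conditional binomial ones. On simulated data the fit for c1q-positive against other cells recovered 20 of 100 genes changed 2-fold and 89 of 100 changed 4-fold, with 2 false calls among 5294 genes. The simulation used a fixed spread for all genes, not estimated from these data, and the same mean shares in all libraries. Its recovery and false calls may therefore not hold for the real counts. DESeq2 1.42.0, other filters, rules and scalings were tried as alternatives. Cells of 1 library are not replicates.

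The c1q-positive cells, gene lists and tests were chosen with earlier results of these data known. Named genes were the 6 markers, the 20 highest and 8 lowest against all other cells, up to 5 each way against myeloid-panel cells, 5 each way for each pair of libraries, list members by UMIs or ratio, and measures of free RNA. For library pairs these were genes past the fold, with c1q-positive CPM at least 2 times that of other cells in either library. Gene names of a few loci came from the GRCz12tu gene table of RefSeq, whose coordinates were not used. No sequences are shown. A few results are not reported here.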

Additional observations from a re-analysis of the deposited data

Results flagged for a closer look

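Of the genes that were named, or listed with at least 100 UMIs in c1q-positive cells, 8 were at least 2-fold higher in c1q-positive than in other cells of 1 liver and at most 0.5-fold in those of another, with both counting intervals leaving out 1. Other named genes at 0 in a liver did not meet these limits. This is a list of cases, and no share over all genes was worked out beside it. These opposite directions were not tested, since each rests on 1 library a group, and the values are CPM ratios of c1q-positive over all other cells.

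The cathepsin gene ctsla had ratios of 4.49 for HepABC HCC, 6.02 for CreLox HCC and 0.495 for no HCC, and the fatty acid binding protein gene fabp11a had 4.04, 3.52 and 0.137. Of the fabp11a UMIs in no HCC c1q-positive cells, 26 of 33 lay in 1 cell. The chemokine gene ccl34b.4 had 2.88, 0.219 and 0.241, with 126, 52.7 and 133 CPM in c1q-positive cells, against 43.6, 241 and 552 CPM in other cells. The cytokine signalling inhibitor gene socs3a had 3.35 in HepABC HCC and 0.488 in no HCC, with 587, 316 and 362 CPM in c1q-positive cells, against 175, 346 and 743 CPM in other cells.

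The annexin gene anxa2a had a ratio of 15.1 in HepABC HCC and 0 in no HCC, where c1q-positive cells had no UMI of it. The peroxiredoxin gene prdx1 had 8.94 in HepABC HCC and 0 in both CreLox HCC and no HCC. The genes nkl.1 and tnfrsf9a, which lymphoid-panel cells also carried, had 4.32 and 5.53 in HepABC HCC, against 0 for nkl.1 in CreLox HCC and no HCC and 0 for tnfrsf9a in CreLox HCC. The genes anxa2a, prdx1, nkl.1 and tnfrsf9a had been named for high HepABC HCC ratios over another library. Their opposite directions thus follow in part from that choice. A ratio of 0 rests on counts of 0, and a floor of 3 UMIs would be 9.30 CPM for CreLox HCC and 12.1 CPM for no HCC.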

How the results depend on the processing

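The share of c1q-positive cells among cells under 10000 UMIs was 18.3% for HepABC HCC, 4.83% for CreLox HCC and 8.10% for no HCC under a stricter rule (at least 5 UMIs and 0.5% of UMIs). It was 5.40% in CreLox HCC and 9.14% in no HCC where each of the 3 genes had to be detected, and 7.12% in HepABC HCC and 10.5% in no HCC with no upper limit of UMIs. Against all other cells, leaving out 1 library gave 547 to 1057 genes higher and 535 to 1232 lower, the lowest counts of both without CreLox HCC. Without TMM scaling 581 genes were lower, and without a filter on low counts 1638, while DESeq2 gave 767 higher and 911 lower. Against myeloid-panel cells, leaving out 1 library gave 7 to 40 genes higher and 6 to 8 lower, and a fit of only these populations 0 and 1. Against lymphoid-panel cells leaving out 1 library gave 379 to 562 higher and 150 to 282 lower, and against endothelial-panel cells 461 to 595 and 366 to 475, with 411 higher in a fit of only these populations. The cause of these shifts was not tested. Fits that leave out a library hold fewer samples, and the fit without a filter tested more genes. Over myeloid-panel cells ccl19a.1 ran from -9.99 to 2.69 with 1 library left out, and turned to 2.69 without no HCC (edgeR adjusted p = 0.926), and 8 of 30 folds of named genes lost their call. Against all other cells, all 307 recomputed folds of named genes kept direction and call. Most of these genes had been picked for an adjusted p under 0.05 and the same direction in all libraries. That outcome was therefore close to fixed in advance.

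Between libraries, 47 of 444 recomputed ratios of named genes moved beyond their counting interval and none reversed. A reversal was counted only for genes past the fold, which made it unlikely by choice. The lysosome genes past the fold in HepABC HCC over no HCC were 4 with the stricter rule, chosen after seeing the data. With that rule the correlation of c1q and cd74a was 0.47 in CreLox HCC and 0.51 in no HCC, that of cd74a and ctsd in no HCC -0.14, that of cd74a and lgmn -0.17 and that of ctsd and lgmn 0.55. Panel cells with 0 c1q UMIs were too few for the myeloid comparison, which was not run. No paired analysis was possible because each group has 1 library, and the library was already a block in the tests within livers. The summed depth of c1q-positive cells, lowest in no HCC at 248321 UMIs, limits what can be seen of genes near the floor of 3 UMIs there, which is 12.1 CPM.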
